A study of Mus musculus with 12 samples.

Results

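Genes that lie beside Gdap1 on mouse chromosome 1 were examined in mice in which exon 5 of Gdap1 had been deleted. The product of Gdap1 sits in the outer membrane of mitochondria and is mutated in a form of Charcot-Marie-Tooth neuropathy. A list of 49 symbols was matched to the array annotation, counting only probe sets annotated with exactly 1 gene. The arrays measured 48 of the 49 genes with 115 probe sets, among 18193 genes and 45037 probe sets in all, and Kcnb2 had no such probe set. A probe set is a group of short oligonucleotides that together give 1 value for a transcript, and 37 of the 48 genes had 2 or more of them, up to 6 for Pcmtd1. In chromosome order the genes run from St18, 40 measured genes before Gdap1, to Col9a1, 26 after it. Before Gdap1 lie 32 of them and after it 16, and 18 other measured genes lie in the same stretch.

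The study has 4 groups of 3 arrays. Total sciatic nerve lysate and motoneurons cut out by laser microdissection were taken from untreated wild type mice and from Gdap1 knockout mice, all 2 months old. The labels call the arrays of a group biological replicates, and per the design text the samples were picked for the amount and quality of their RNA out of those of 5 mice. Neither says whether the 5 mice were per group or in all, or whether the nerve and motoneuron arrays came from the same mice. The knockout is of the whole animal, so no cell type keeps an intact Gdap1 exon 5, and the labels used here name neither the strain nor the origin of the targeted allele.

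Genes that lie close together on a chromosome are usually inherited together. In a knockout line, the genes beside the altered locus therefore tend to descend with it from the animal or cells in which it was made. Neighbours need not share a function, and those of Gdap1 include transcription factors, ribosome and RNA factors, ubiquitin enzymes, ion channels, metabolic enzymes and secreted proteins. Whether the stretch has the same origin in both genotypes was not tested here.

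The deposited values are log2 expression values, and the nerve and motoneuron arrays do not share a scale. Medians of nerve arrays ran from 8.29 to 8.40 and those of motoneuron arrays from 6.53 to 6.59, so levels are compared only between genotypes of a tissue, or as a percentile within an array. Arrays have no read depth, and 3 per group limit the precision. Myelinating Schwann cell markers lay on average at the 97th percentile in nerve, and motoneuron markers at the 86th in captured motoneurons. Markers of other cells lay as high or nearly so. Fibroblast markers were at the 97th in nerve, and oligodendrocyte markers at the 87th and astrocyte markers at the 79th in captured motoneurons. The 4 Gdap1 probe sets differed by -0.08 to 0.29 in nerve and by -0.13 to 0.70 in motoneurons. Per the design text they lie in exons 4 and 6, outside the deletion, and so check nothing about the labels.

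By their brightest probe sets, 29 of the 48 genes lay above the median of the arrays in nerve, and 29 did so in motoneurons. Above the 90th percentile lay 9 in nerve and 13 in motoneurons, and below the 25th 10 and 8.

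Several array measures moved with genotype or stood apart. The 4 hybridization spikes bioB, bioC, bioD and cre, labelled transcripts added to every array, read lower in all 3 knockout than in all 3 wild type arrays in both tissues, by -0.97 to -0.13 in nerve and by -0.61 to -0.18 in motoneurons. The ratios of 3′ to 5′ probe sets of beta-actin and Gapdh overlapped between genotypes. Among the motoneuron arrays, wild type replicate 3 alone correlated less with its own group (mean r 0.9867) than with the other genotype (0.9890). In nerve 3 arrays did so, wild type replicate 2 by the widest gap (0.9850 against 0.9905), wild type replicate 1 (0.9885 against 0.9899) and knockout replicate 3 (0.9888 against 0.9890). Xist was high in 1 array of each genotype in nerve and low in 1 knockout array in motoneurons. In captured motoneurons the mean of the astrocyte markers, 4 of 6 of them lower in the knockout, was 10.48 to 10.83 in wild type and 10.09 to 10.39 in knockout. That of the endothelial and mural markers, 6 of 6 lower, was 6.93 to 7.16 and 6.49 to 6.77. In nerve the mean of the fibroblast markers, 6 of 6 lower, was 14.31 to 14.40 and 14.22 to 14.31. The oligodendrocyte markers in captured motoneurons were also 6 of 6 lower, with a median difference of -0.41 and 2 at an unadjusted p under 0.05, and their mean, 11.41 to 12.08 in wild type and 10.99 to 11.67 in knockout, overlapped. The means of the other marker lists overlapped between genotypes in each tissue. In a nerve lysate or a pool of captured cells, fewer cells of a type and less RNA per cell cannot be told apart. The part of these measures in the differences below was not tested, beyond the values given without single arrays.

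Genotypes were compared with limma, a linear model fitted to each probe set with a spread moderated across all of them, and p-values were adjusted by the Benjamini-Hochberg method over all 45037 probe sets. Rrs1, a factor for assembly of the large ribosomal subunit, fell in the knockout when the difference was averaged over both tissues, by 0.65 on the log2 scale (SE 0.077, adjusted p = 0.0298 by limma), which is 0.637 of the wild type level. That comparison treats the 12 arrays as independent. By Xist and Eif2s3y, some wild type nerve arrays shared no mouse with the motoneuron arrays. For the rest, shared mice cannot be checked. The Rrs1 probe set was alone among the 115 in passing that comparison, where 4 of all 45037 passed (0.00888%). No probe set of any gene passed in nerve alone (0.0%), in motoneurons alone (0.0%), or in the test of whether the genotype difference was unequal between tissues (0.0%). At an unadjusted p under 0.05 the counts over all genes in these 3 comparisons were 1040, 7665 and 3398.

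The neighbours of Gdap1 had small unadjusted p-values more often than the arrays as a whole. In nerve, 16 of 115 probe sets (13.9%) had an unadjusted p under 0.05, against 2.31% of all probe sets. Of these, 11 were lower and 5 higher in the knockout, against backgrounds of 1.12% lower and 1.19% higher. In motoneurons the count was 30 of 115 (26.1%) against 17.0%, with 21 lower (18.3%, background 8.24%) and 9 higher (7.83%, background 8.78%). In the mean of the tissues 24 probe sets (20.9%) had such a p against 13.5%, with 19 lower (16.5%, background 6.63%) and 5 higher (4.35%, background 6.91%). In the difference between tissues 18 (15.7%) had one against 7.54%, of which 11 were more negative in motoneurons than in nerve (9.57%, background 3.81%) and 7 more positive (6.09%, background 3.73%). The genes were listed with earlier results of these arrays known, so these counts describe the list and are not a test of it.

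Counts of groups that did not overlap were read the same way. In nerve all 3 knockout values lay beyond all 3 wild type values for 16 probe sets (13.9%), against 7.26% of all, with 10 lower (8.7%, background 3.67%) and 6 higher (5.22%, background 3.58%). In motoneurons they did so for 29 (25.2%), a share near the 22.5% of all probe sets, and of those 24 were lower in the knockout (20.9%, background 9.77%) and 5 higher (4.35%, background 12.7%). The groups were apart in the same direction in both tissues for 7 probe sets (6.09%), against 1.18% of all. These belong to Cops5, Rrs1 with both of its probe sets and Vcpip1, lower in the knockout (3.48%, background 0.54%), and to Msc, Prdm14 and Sntg1, higher in the knockout (2.61%, background 0.642%). None was apart in opposite directions, against 0.4% of all probe sets.

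**Figure D1:**
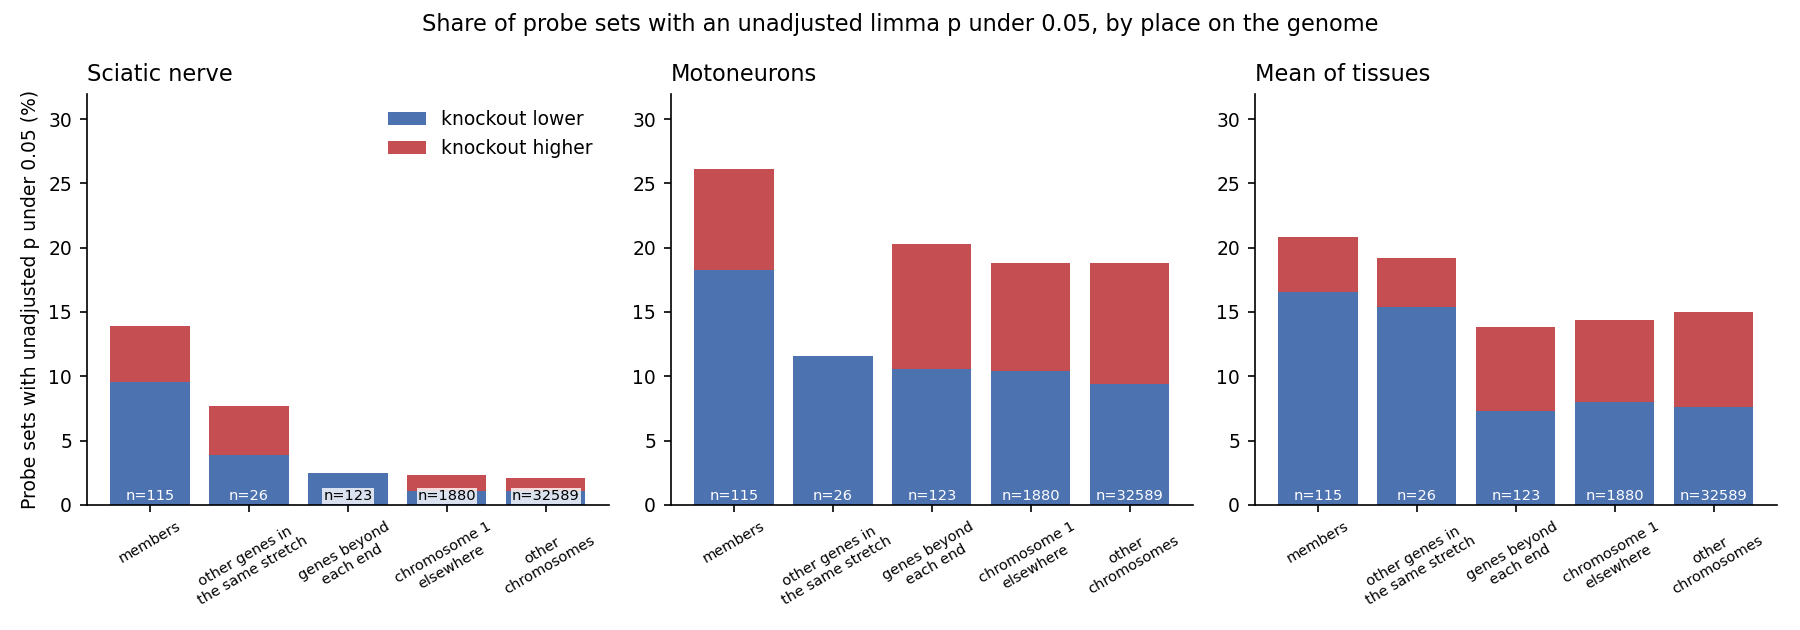
Share of probe sets with an unadjusted limma p under 0.05 (y axis, percent, from 0), divided into those lower and higher in the knockout, in sciatic nerve, captured motoneurons and the mean of the tissues. Bars stand for the neighbours of Gdap1 (115 probe sets), other genes in the same stretch (26), genes beyond each end (123), the rest of chromosome 1 (1880) and other chromosomes (32589); in nerve the first bar reaches 13.9% and the last 2.05%.

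The place of a probe set on chromosome 1 gave the shares plotted by place on the genome. In nerve, 2 of 26 probe sets of the other genes in the stretch (7.69%) had an unadjusted p under 0.05. The share was 2.44% for 123 probe sets of the 55 genes just beyond the ends, 2.34% for the rest of chromosome 1 and 2.05% for other chromosomes. In motoneurons the same shares were 11.5% (3 of 26), 20.3%, 18.8% and 18.8%. By genes, each read by its brightest probe set, 3 of the 18 unlisted genes of the stretch (16.7%) had such a p there, against 20.7% of all genes. Taking the probe set with the highest mean for each gene, 32 of 48 genes were lower in knockout nerve with a median difference of -0.065, against 50.6% of all genes and a median of -0.0019. In motoneurons 30 of 48 were lower with a median of -0.10, against 47.5% and 0.018.

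Within the list, genes that read lower in motoneurons lay on both sides of Gdap1. The 16 genes from 21 to 40 places before it had a median of -0.29 in motoneurons, with 12 lower. The 16 genes within 20 places before it had a median of 0.020 with 7 lower, and the 16 genes after it one of -0.16 with 11 lower. Of the 13 genes that were lower with an unadjusted p under 0.05, 6 lay far before Gdap1, 4 within 20 places before it and 3 after it. In nerve the same medians were -0.035, -0.014 and -0.14. This division was chosen after the values were seen.

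**Figure D2:**
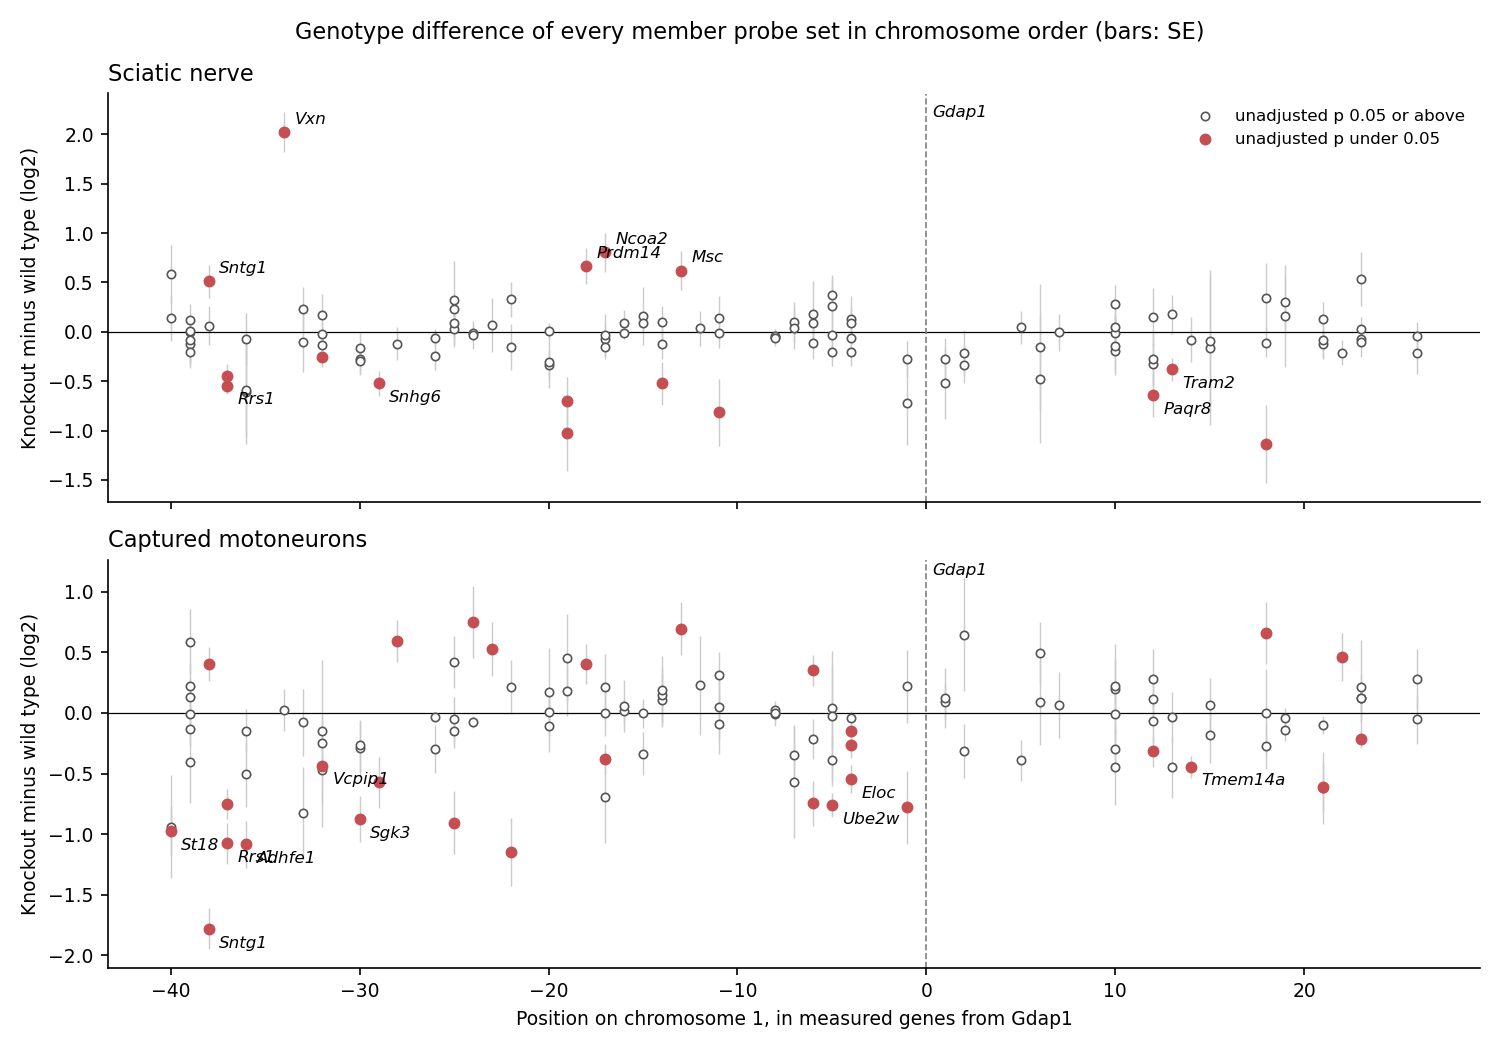
Knockout minus wild type (y axis, log2) of all 115 probe sets against their place on chromosome 1 (x axis, measured genes counted from Gdap1, dashed line), in nerve (top) and captured motoneurons (bottom); bars are SE and filled points have an unadjusted limma p under 0.05. Vxn stands at 2.02 in nerve and Sntg1 at -1.78 in motoneurons, both over 30 genes before Gdap1.

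Among the 4 genes for ribosomes and RNA, Rrs1 and Snhg6 were lower in both tissues while Rpl7 differed little. Rrs1, 37 measured genes before Gdap1, has 2 probe sets. By 1456865_x_at, nerve arrays read 12.58, 12.69 and 12.69 in wild type and 12.15, 12.14 and 12.05 in knockout. Motoneuron arrays read 12.19, 12.31 and 12.67 in wild type and 11.69, 11.60 and 11.62 in knockout. Every knockout array lay below every wild type array in each tissue, with differences of -0.55 (SE 0.081, adjusted p = 1 by limma) in nerve and -0.75 (SE 0.13, adjusted p = 0.107) in motoneurons. The x in the name of this probe set marks that some of its probes can also match other sequences.

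The other Rrs1 probe set, 1416998_at, carries no such mark and had the same direction. It read 10.70, 10.71 and 10.69 in wild type nerve and 10.42, 10.25 and 10.09 in knockout nerve. In motoneurons it read 10.59, 11.00 and 10.56 in wild type and 9.84, 9.49 and 9.59 in knockout. Again no groups overlapped, and the mean difference over tissues was -0.76 (SE 0.11, adjusted p = 0.0700 by limma), which did not pass. The Rrs1 call ended in 10 of 12 fits that left out 1 array, all but those without motoneuron wild type replicate 1 or 3, with adjusted p from 0.0550 to 0.129 by limma. Its difference stayed between -0.70 and -0.58 under all 20 alternative settings.

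Snhg6 is the host gene of small nucleolar RNAs and is itself a noncoding RNA. Its probe set read 12.28, 12.34 and 12.03 in wild type nerve and 11.88, 11.61 and 11.60 in knockout nerve. In motoneurons it read 11.37, 11.53 and 11.33 in wild type and 10.70, 11.33 and 10.48 in knockout. The groups were apart in nerve, while in motoneurons knockout replicate 2 reached the lowest wild type value, and the mean difference of -0.55 (SE 0.13, adjusted p = 0.139 by limma) did not pass. Rpl7, a protein of the large ribosomal subunit, differed by -0.06 to 0.03 over its 3 probe sets and both tissues. Stau2, which binds double-stranded RNA and carries mRNA into dendrites, gave 3 unlike answers in motoneurons and is described with the probe sets that disagreed.

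All 5 genes for ubiquitin and protein repair were lower in the knockout in both tissues by their brightest probe set, with medians of -0.061 in nerve and -0.15 in motoneurons. Of all genes, 50.6% were lower in nerve and 47.5% in motoneurons. Pcmtd1 was near level by that probe set (-0.002 and -0.005), and none passed. Of the 20 probe sets of these genes, 7 were higher in nerve and 4 in motoneurons. Those higher in nerve included some of Ube2w (up to 0.37), Eloc (up to 0.13) and Vcpip1 (0.17). Vcpip1, a deubiquitinase that works with the ATPase VCP, read 12.75, 12.57 and 12.90 in wild type nerve and 12.56, 12.42 and 12.49 in knockout nerve by 1434706_at. Motoneurons read 13.30, 13.24 and 13.19 in wild type and 12.85, 12.82 and 12.76 in knockout. The groups were apart in both tissues, narrowly so in nerve, with differences of -0.25 (SE 0.10, adjusted p = 1 by limma) and -0.43 (SE 0.056, adjusted p = 0.0904).

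Ube2w is an E2 enzyme that attaches ubiquitin to the amino terminus of proteins. By 1452054_at, motoneurons read 12.41, 12.56 and 12.25 in wild type and 11.67, 11.72 and 11.56 in knockout, without overlap (-0.76, SE 0.10, adjusted p = 0.0904 by limma). In nerve it read 12.24, 12.40 and 12.52 in wild type and 11.88, 12.35 and 12.33 in knockout, where the groups overlapped (-0.20). Next to it lies Eloc, elongin C, an adaptor of cullin ubiquitin ligases. By 1452593_a_at, Eloc read 12.06, 11.86 and 11.70 in wild type motoneurons and 11.33, 11.42 and 11.23 in knockout, again apart (-0.54, SE 0.12, adjusted p = 0.119). Its nerve values, 11.83, 11.74 and 12.06 in wild type and 11.48, 11.62 and 11.89 in knockout, overlapped. Cops5, the catalytic subunit of the COP9 signalosome, was apart in both tissues only by 1439243_x_at (-0.24 and -0.30) and differed by -0.06 and -0.04 by its brighter probe set. Pcmtd1, related to enzymes that repair damaged aspartates, ranged from -0.41 to 0.59 over 6 probe sets and both tissues.

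The 9 transcription regulators had values on both sides of 0, with 5 of 9 lower in nerve and 4 of 9 in motoneurons. Msc, musculin, a basic helix-loop-helix repressor first known from muscle precursors, was the most evenly higher gene. Nerve read 8.02, 7.83 and 7.41 in wild type and 8.33, 8.25 and 8.53 in knockout, and motoneurons 7.06, 6.98 and 6.84 in wild type and 7.88, 7.31 and 7.76 in knockout. The groups were apart in each tissue, by 0.62 and 0.69, and the mean of 0.66 (SE 0.15, adjusted p = 0.132 by limma) did not pass. Skeletal muscle markers in nerve overlapped between genotypes and were higher on average in wild type, at 11.40 ± 2.91 (SD, n = 3) against 10.18 ± 0.552 (SD, n = 3).

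Prdm14, a regulator of germ cells and pluripotent cells, also read higher in each knockout group, but near the bottom of the scale. Nerve values were 2.98, 2.97 and 2.53 in wild type and 3.25, 3.54 and 3.69 in knockout. Motoneuron values were 2.85, 3.15 and 3.04 in wild type and 3.44, 3.65 and 3.18 in knockout. These levels lie at the 3rd and 7th percentile of the arrays, and the mean difference was 0.54 (SE 0.13, adjusted p = 0.134 by limma). Its neighbour Ncoa2 is a coactivator of nuclear receptors. By 1446827_at it was higher in knockout nerve, where the arrays read 8.25, 8.30 and 7.82 in wild type and 9.19, 8.84 and 8.75 in knockout (0.80, SE 0.20, adjusted p = 1).

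St18, a zinc finger factor, was lower in motoneurons by 1436793_at, at 5.62, 5.43 and 5.93 in wild type and 4.83, 4.48 and 4.73 in knockout (-0.97, SE 0.21, adjusted p = 0.119 by limma). The same probe set overlapped in nerve, at 3.58, 4.48 and 3.98 against 4.02, 4.32 and 4.14. The other St18 probe set, 1455123_at, read 3.06, 2.91 and 3.22 in wild type nerve and 3.26, 3.33 and 4.36 in knockout, apart in the other direction at the 4th percentile of the arrays (0.58). In motoneurons it read 6.39, 7.13 and 5.73 against 6.20, 5.09 and 5.14 and overlapped (-0.94). Eya1, a transcription cofactor of organ formation, read 6.11, 5.73 and 5.96 in wild type nerve and 5.58, 4.99 and 5.67 in knockout by 1457424_at (-0.52). Its 2 other probe sets differed by -0.13 and 0.10 there. Mybl1, Tcf24, Tfap2d and Tfap2b, the other four regulators, ranged from -0.83 to 0.59 over both tissues, and Tcf24 in motoneurons (0.59) was the only one of them with an unadjusted p under 0.05.

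**Figure D3:**
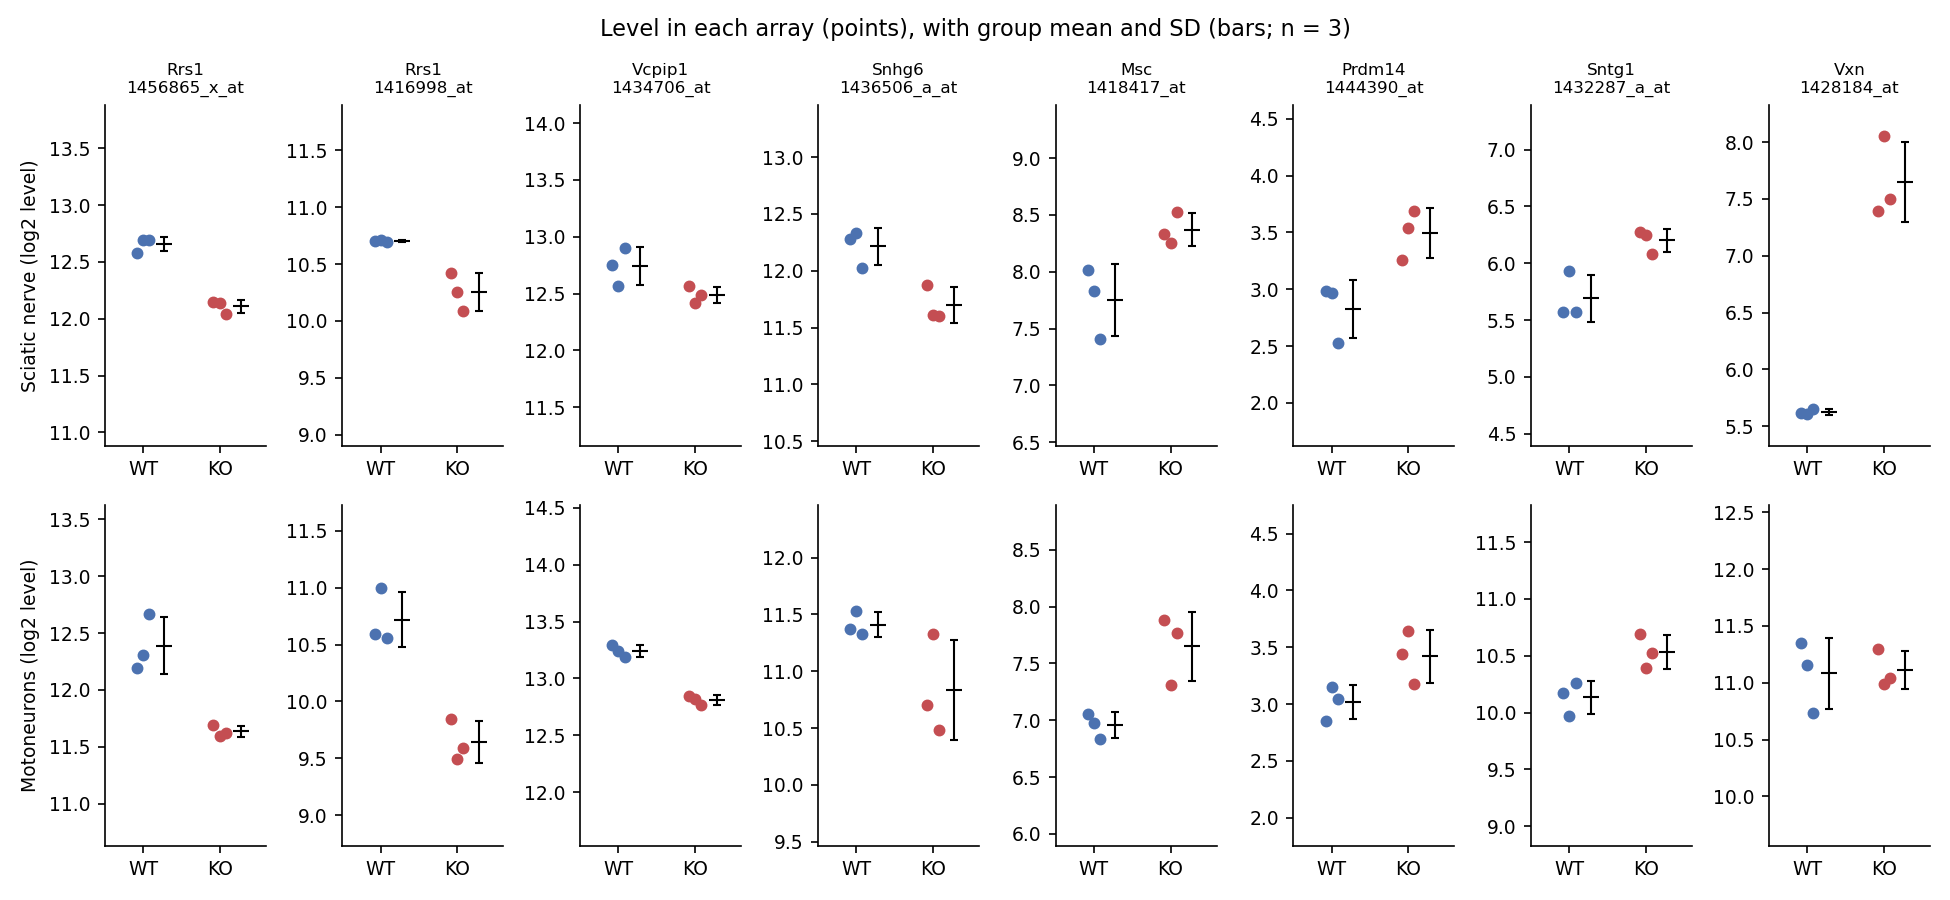
Log2 level in each array (points; blue wild type, red knockout) with group mean and SD (bars, n = 3) for 8 probe sets, in nerve (top row) and captured motoneurons (bottom row); every panel spans at least 3 log2 units. The 2 Rrs1 panels and Vcpip1 are lower in all knockout arrays of each tissue, Msc, Prdm14 and Sntg1 are higher, and Vxn is 2.02 higher in nerve and level in motoneurons.

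Vxn, which encodes vexin, a small protein known to promote neurogenesis, gave the largest difference of the list, in nerve. Nerve arrays read 5.62, 5.60 and 5.65 in wild type and 7.39, 8.05 and 7.50 in knockout. Motoneuron arrays read 11.35, 11.16 and 10.74 in wild type and 11.30, 10.99 and 11.04 in knockout. The nerve groups were far apart, by 2.02 or 4.07-fold (SE 0.20, unadjusted p = 1.59e-05, adjusted p = 0.716 by limma), and the motoneuron groups overlapped (0.027, SE 0.17). The test of the difference between tissues gave -2.00 (adjusted p = 0.205 by limma) and did not pass. With all 12 arrays in 1 fit, which shares the spread between tissues, the nerve difference passed (adjusted p = 0.0192 by limma). Its level lay at the 31st percentile in nerve and the 84th in motoneurons. Of the 11 motoneuron markers measured in nerve, 3 were lower and the other eight higher in the knockout, with a median difference of 0.21 and 1 at an unadjusted p under 0.05. Their mean overlapped between genotypes, at 7.20 ± 0.294 (SD, n = 3) in wild type and 7.24 ± 0.0827 (SD, n = 3) in knockout, and their part in the Vxn difference was not tested.

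The 5 measured genes for channels and the synapse were led by Sntg1, gamma-1 syntrophin, a neuronal adaptor protein of the dystrophin complex. Its 2 probe sets had opposite signs in motoneurons. By 1440598_at, motoneurons read 5.67, 5.56 and 5.39 in wild type and 3.75, 3.66 and 3.87 in knockout (-1.78, SE 0.17, adjusted p = 0.0902 by limma). By 1432287_a_at, they read 10.17, 9.97 and 10.26 in wild type and 10.69, 10.39 and 10.53 in knockout (0.40, SE 0.14, adjusted p = 0.215). Both pairs of groups were apart, in opposite directions. In nerve the second probe set was again higher in the knockout, at 5.57, 5.93 and 5.57 against 6.27, 6.25 and 6.08, and the first lay at the 1st percentile.

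Kcnq5, a potassium channel of the M-current, had its only small p-values in its dimmest probe set. By 1441071_at, nerve read 5.80, 5.47 and 4.19 in wild type and 4.16, 4.12 and 3.76 in knockout (-1.14), and motoneurons read 3.17, 2.43 and 2.83 against 3.32, 3.93 and 3.15 (0.66). Its brightest probe set differed by -0.11 and -0.27. Jph1, which ties the plasma membrane to the calcium store in muscle, is the nearest listed gene before Gdap1. By 1438428_at it read 6.94, 6.52 and 6.50 in wild type motoneurons and 5.72, 5.43 and 6.47 in knockout (-0.78, SE 0.30, adjusted p = 0.253 by limma), apart by a narrow margin. In nerve that probe set read 8.99, 7.14 and 8.40 in wild type and 7.48, 7.28 and 7.62 in knockout. The other Jph1 probe set, 1421520_at, had the opposite sign in motoneurons (0.22) and was lower in nerve (-0.28). The nerve arrays with the higher values by 1438428_at were wild type replicates 1 and 3. Those arrays also had the highest skeletal muscle markers, with means of 13.70 and 12.36 against 8.13 to 10.69 in the other 4. This pairing was picked after the values were seen, and the part of muscle in the Jph1 difference was not tested. Rims1, a scaffold of the presynaptic active zone, and the irritant channel Trpa1 stayed between -0.14 and 0.30 in both tissues.

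The 4 genes for small GTPase and kinase signalling were all lower in motoneurons by their brightest probe set there, with a median of -0.55, and none passed. Sgk3, a kinase that acts downstream of PI3 kinase, read 8.93, 9.38 and 9.24 in wild type and 8.23, 8.52 and 8.19 in knockout motoneurons by 1450036_at (-0.87, SE 0.19, adjusted p = 0.120 by limma). Nerve read 12.26, 11.81 and 12.17 in wild type and 11.82, 11.72 and 11.82 in knockout, overlapping slightly (-0.29). Prex2, an exchange factor for Rac, read 6.20, 6.45 and 5.43 in wild type and 4.95, 4.79 and 4.90 in knockout motoneurons by 1436569_at (-1.15, SE 0.28, adjusted p = 0.131). That probe set overlapped in nerve, at 10.69, 10.60 and 11.31 against 10.60, 10.49 and 11.03. The other Prex2 probe set, 1432047_at, was the brighter one in nerve and was higher on average in both tissues. It read 10.67, 10.80 and 11.13 in wild type and 11.39, 10.91 and 11.28 in knockout nerve (0.33), and 4.68, 4.35 and 4.95 against 5.08, 4.59 and 4.95 in motoneurons (0.21), with overlap in each.

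Arfgef1 and Smap1 act on Arf GTPases, the first as an exchange factor and the second as a GTPase-activating protein. Arfgef1 was near level by its bright probe set (-0.01 in nerve and -0.08 in motoneurons). By 1437104_at, it read 9.51, 9.39 and 10.55 in wild type motoneurons and 10.67, 10.42 and 10.61 in knockout, so that wild type replicate 3 lay among the knockout values (0.75, adjusted p = 0.259 by limma). In nerve that probe set read 9.94, 9.90 and 10.23 against 9.90, 10.05 and 10.02. Smap1 read 13.27, 13.44 and 13.54 in wild type and 13.19, 13.23 and 13.18 in knockout motoneurons by 1423956_at, apart by a small step (-0.22). Its 3 other probe sets differed by 0.13 to 0.21, and among these too groups were apart, with the knockout higher.

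Of the 6 genes for metabolism and transport, 5 were lower in motoneurons and 4 in nerve. Adhfe1, a mitochondrial enzyme that oxidizes hydroxybutyrate, lies just after Rrs1 in the list. By 1424393_s_at, motoneurons read 7.74, 7.75 and 8.11 in wild type and 6.76, 6.83 and 6.75 in knockout (-1.08, SE 0.19, adjusted p = 0.108 by limma). Nerve read 11.77, 12.27 and 10.79 in wild type and 11.25, 11.65 and 10.15 in knockout, a difference of like sign inside a wide spread (-0.59, SE 0.47). Slco5a1, an organic anion transporter relative, was lower in nerve by both probe sets (-0.70 and -1.03) and higher in motoneurons by both (0.46 and 0.18), with no adjusted p under 0.05 in the test of that difference (0.633 for each by limma). Gsta3, a glutathione transferase, had the widest spread among the nerve arrays, from 9.47 to 12.56 by its brighter probe set, with both extremes in the knockout. Lactb2 and Rdh10 stayed between -0.57 and 0.16.

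Paqr8, Tram2 and Tmem14a are next to each other among the listed genes, 12, 13 and 14 places after Gdap1, and the brightest probe set of each was lower in both tissues, though other probe sets of Paqr8 and Tram2 were not. Their promoters are shown because these neighbours lie side by side and are in the table. Each is 300 bases from RefSeq, build GRCm38.p6, from 250 before to 50 after the start, 5′ to 3′ on the gene's strand, and for Paqr8 the first of its 2 listed starts was taken. Paqr8 is at chr1:20890298-20890597 on the plus strand, Tram2 at chr1:21079176-21079475 on the minus strand and Tmem14a at chr1:21218325-21218624 on the plus strand. Capitals mark the GC box, GGGCGG or its reverse complement CCGCCC, where overlapping matches run together.
Paqr8: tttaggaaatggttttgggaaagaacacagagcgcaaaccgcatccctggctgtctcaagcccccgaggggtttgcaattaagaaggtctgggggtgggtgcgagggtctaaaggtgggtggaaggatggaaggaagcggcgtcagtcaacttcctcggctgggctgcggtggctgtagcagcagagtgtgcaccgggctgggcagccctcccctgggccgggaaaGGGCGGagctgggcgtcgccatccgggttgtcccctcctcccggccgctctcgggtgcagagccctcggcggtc
Tram2: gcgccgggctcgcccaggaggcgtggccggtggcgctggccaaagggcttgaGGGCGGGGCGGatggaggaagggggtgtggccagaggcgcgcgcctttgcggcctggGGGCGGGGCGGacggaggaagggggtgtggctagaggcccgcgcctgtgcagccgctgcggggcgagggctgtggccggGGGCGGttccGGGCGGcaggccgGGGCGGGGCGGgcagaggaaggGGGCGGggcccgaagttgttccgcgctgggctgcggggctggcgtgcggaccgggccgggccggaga
Tmem14a: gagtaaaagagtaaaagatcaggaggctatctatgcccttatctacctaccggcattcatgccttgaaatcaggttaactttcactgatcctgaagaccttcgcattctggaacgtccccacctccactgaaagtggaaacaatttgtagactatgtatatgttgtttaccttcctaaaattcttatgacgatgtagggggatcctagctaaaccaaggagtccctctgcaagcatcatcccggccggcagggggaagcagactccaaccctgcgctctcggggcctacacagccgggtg

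Tram2 held 9 matches, Paqr8 1 and Tmem14a 0, and 79.7%, 64.3% and 49.0% of their bases were G or C. Of all 32851 promoters of this length in the RefSeq table, 35.7% held at least 1 match. Promoters were listed for 12 of the 48 genes, and 7 of their 18 held a match. A match is only a run of letters in this window.

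Paqr8, a membrane receptor of the progestin and adiponectin receptor family, read 11.28, 11.22 and 11.81 in wild type nerve and 10.72, 10.52 and 11.14 in knockout nerve by 1428958_at. In motoneurons it read 12.48, 12.44 and 12.66 in wild type and 12.13, 12.47 and 12.03 in knockout. Nerve groups were apart (-0.64, SE 0.22, adjusted p = 1 by limma), and motoneuron groups overlapped through knockout replicate 2 (-0.32, SE 0.13, adjusted p = 0.265). Its 3 other probe sets differed by -0.33, -0.28 and 0.15 in nerve and by -0.07, 0.11 and 0.28 in motoneurons, with groups that overlapped. Tram2, which takes part in translocation of collagen chains into the endoplasmic reticulum, read 11.89, 12.22 and 11.96 in wild type nerve and 11.72, 11.58 and 11.62 in knockout by 1439539_at, also apart (-0.38, SE 0.12, adjusted p = 1). Motoneurons read 5.96, 5.45 and 6.24 against 5.68, 5.26 and 5.36 and overlapped (-0.45). The dimmer Tram2 probe set, 1419342_at, read 7.74, 7.90 and 7.68 in wild type nerve and 7.86, 7.68 and 8.31 in knockout, overlapping with the opposite sign (0.18), and differed by -0.03 in motoneurons. Tram1, a relative of Tram2, stayed between -0.01 and 0.09 in both tissues. Tmem14a, a small membrane protein, read 11.62, 11.84 and 11.77 in wild type and 11.30, 11.31 and 11.29 in knockout motoneurons, apart by -0.44 (SE 0.092, adjusted p = 0.118). Its nerve values, 10.99, 10.99 and 11.51 against 10.68, 11.13 and 11.44, overlapped.

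The 6 matrix and secreted genes and the 4 genes of chromosomes, division and cilium held no probe set that passed. Among the former, Sulf1, Cpa6, Pi15, Crispld1, Col9a1 and B3gat2, 11 probe sets ranged from -0.52 to 0.07 in nerve with 9 lower, and from -0.32 to 0.65 in motoneurons with 8 higher. None of the 11 had an unadjusted p under 0.05 in nerve, against 2.31% of all probe sets. In motoneurons 2 did (18.2%, near the 17.0% of all), of Cpa6 (0.53) and B3gat2 (0.46), both higher. Pi15 and Crispld1, the 2 listed genes just after Gdap1, ranged from -0.52 to -0.21 in nerve and from -0.32 to 0.65 in motoneurons. Ogfrl1, a relative of the opioid growth factor receptor that is in no role group, was apart in motoneurons by 1424414_at, at 9.39, 9.49 and 9.43 in wild type and 8.85, 9.15 and 8.49 in knockout (-0.61, adjusted p = 0.192 by limma), and its brightest probe set differed by -0.10. Terf1, which binds telomere repeats, read 7.50, 7.17 and 7.54 in wild type and 7.32, 5.95 and 6.49 in knockout nerve by 1443527_at, where knockout replicate 1 overlapped (-0.82), while its 2 other probe sets differed by -0.01 and 0.14. Mcm3, a subunit of the replicative helicase, and Pkhd1, which encodes a protein of the cilium, had no unadjusted p under 0.05 in either tissue.

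Differences in the 2 tissues, which share no arrays but may share some mice, were of one sign for 30 of 48 genes (62.5%), against 58.2% of all genes. Of these 22 were lower in both and 8 higher in both. Across the 48 genes, which are not independent replicates, the differences in nerve and motoneurons had a Pearson r of 0.28 and a Spearman rho of 0.36, against 0.12 and 0.22 over all genes. Over single probe sets the share of one sign was 63 of 115 (54.8%), against 57.7% of all probe sets. At an unadjusted p under 0.05 in both tissues in the same direction stood 8 of 115 probe sets (6.96%), against 0.284% of all. These were of Msc, Prdm14 and Sntg1, higher, and of Rrs1 with 2, Vcpip1, Snhg6 and Paqr8, lower.

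**Figure D4:**
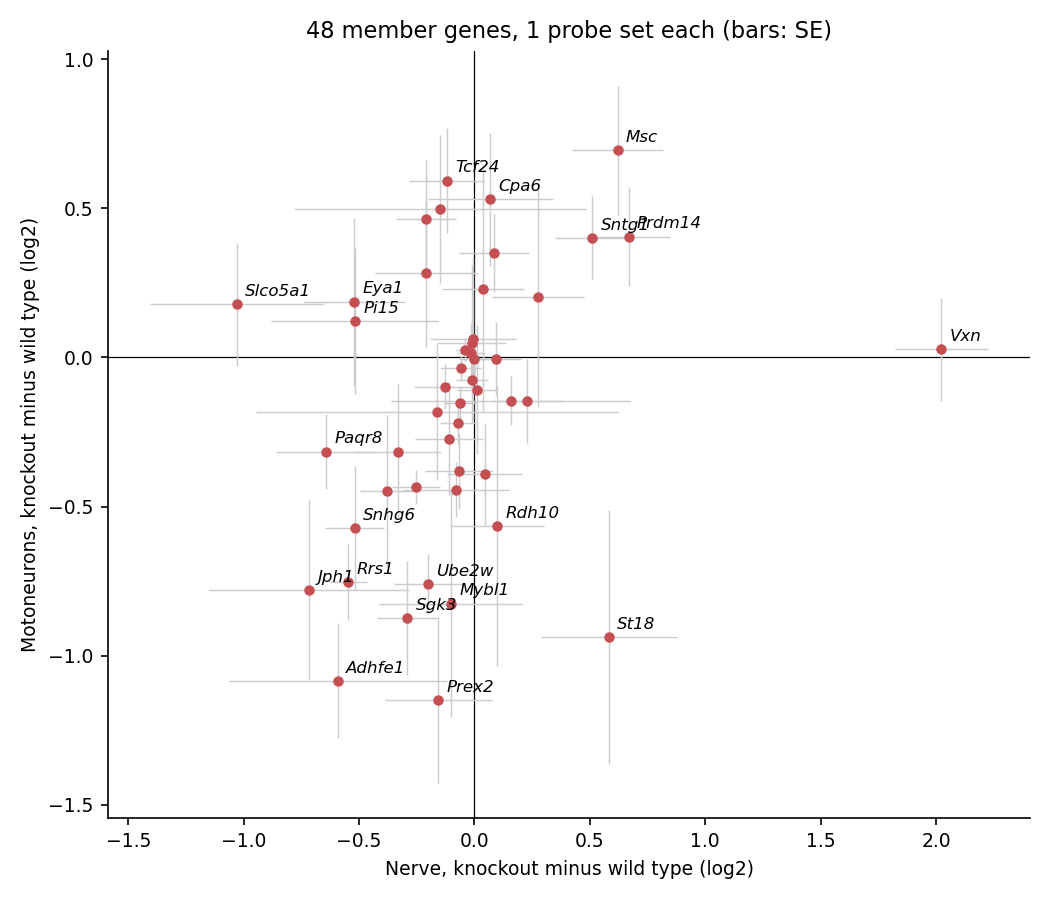
Knockout minus wild type in nerve (x axis, log2) against motoneurons (y axis, log2) for the 48 measured genes, each shown by its brightest probe set; bars are SE. Rrs1, Snhg6 and Adhfe1 lie at the lower left, Msc, Prdm14 and Sntg1 at the upper right, and Vxn far to the right at 2.02.

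Probe sets of 1 gene often disagreed, so the direction of a gene depended on which was read. Of the 37 genes with 2 or more probe sets, all had one sign for 19 in nerve (51.4%, all genes 45.1%) and for 18 in motoneurons (48.6%, all genes 42.3%). The widest gap in nerve was in Kcnq5, 1.48 between its highest and lowest probe set, and the widest in motoneurons was in Sntg1, 2.18. Stau2 was split in motoneurons although its 3 probe sets lay at the 87th to 91st percentile. It read 12.03, 11.83 and 12.07 in wild type and 12.44, 12.05 and 12.49 in knockout by 1425533_a_at (0.35). By 1450916_at it read 12.07, 12.16 and 11.54 in wild type and 11.31, 10.91 and 11.31 in knockout (-0.75, SE 0.19, adjusted p = 0.135 by limma), and the third probe set gave -0.21. In nerve the Stau2 probe sets stayed between -0.12 and 0.18.

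Ncoa2 and Cspp1 were split in the same way, as were Prex2 and Paqr8 in both tissues and Jph1 in motoneurons. In nerve the brightest Ncoa2 probe set, 1435233_at, differed by -0.07, and 1446827_at by 0.80. In motoneurons 1435233_at read 10.68, 10.84 and 10.92 in wild type and 10.47, 10.53 and 10.29 in knockout, apart by -0.38. Cspp1, a centrosome and spindle pole protein, read 5.11, 6.02 and 5.48 in wild type and 4.47, 4.57 and 4.84 in knockout motoneurons by 1420340_at (-0.91), while 1431405_a_at gave 0.42. The probe sets of Eloc in motoneurons, -0.54, -0.26, -0.15 and -0.04, and of Vcpip1, -0.47, -0.43, -0.25 and -0.15, each had one sign. The gap between the highest and lowest probe set of a gene reached the smallest exact permutation p that 3 arrays against 3 allow, 0.1 (two-sided), in 18 of the 74 cases of gene and tissue. The pair was picked by its values, so this p is a description. No such count was made over all genes, so whether 18 is many cannot be told.

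**Figure D5:**
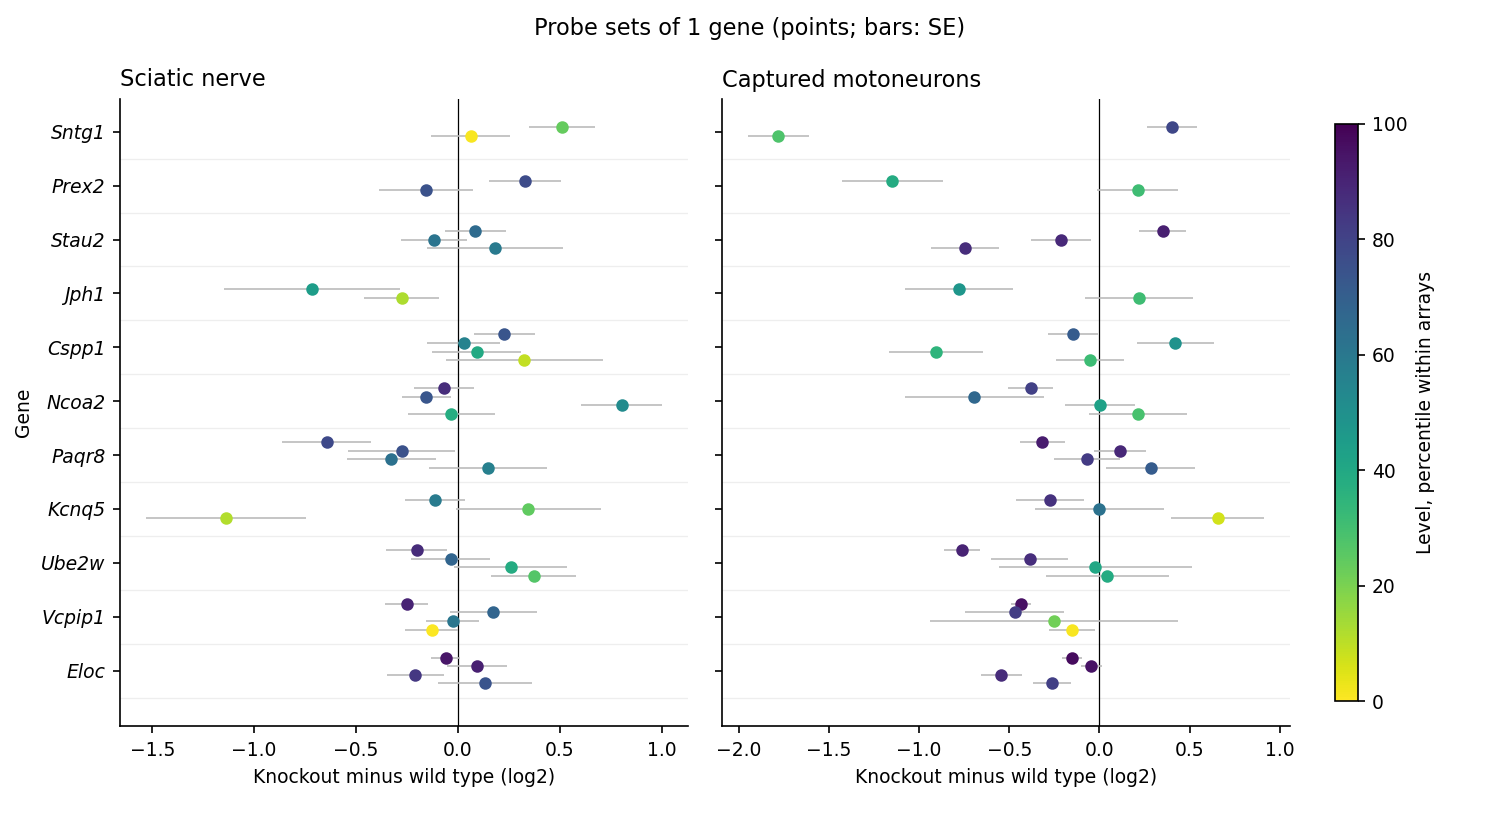
Knockout minus wild type (x axis, log2; bars are SE) of each probe set of 11 genes, in nerve (left) and captured motoneurons (right), coloured by the percentile of its level within the arrays. Sntg1 spans -1.78 to 0.40 and Stau2 -0.75 to 0.35 in motoneurons, while Eloc and Vcpip1 stay below 0 there.

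Among fits that left out 1 array, passing probe sets of the list were most numerous without motoneuron wild type replicate 3. The count also depended on the fit with that array kept. In the joint fit of all 12 arrays, 7 of the 115 probe sets (6.09%) passed in motoneurons, against 1.84% of all. Without motoneuron wild type replicate 3, 17 of the 115 probe sets (14.8%) passed in motoneurons, against 10.3% of all, 16 lower and 1 higher, in 13 genes. The lower ones were of Sntg1 (adjusted p = 0.00524 by limma), Rrs1 (0.0102 and 0.00692), Adhfe1, Mybl1, Vcpip1 with 2, Sgk3, Prex2, Stau2, Ube2w with 2, Eloc with 2, Tmem14a and Ogfrl1, and the higher one of Arfgef1. In that array 1456607_at of Vcpip1 read 10.36 against 11.46 and 11.39 in the other wild type arrays and 10.65, 10.64 and 10.52 in the knockout. The mean of the tissues then had 16 passing probe sets (13.9%) against 5.04% of all. In the difference between tissues 3 passed (2.61%), of Sntg1, Vxn and Arfgef1, against 0.528% of all. The wild type group is then 2 arrays, whose spread is pooled with that of the knockout.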

How the data were processed

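The deposited table holds log2 expression values per probe set for 12 arrays. That scale is inferred from their range, and the authors made them with Affymetrix Expression Console 1.1, per the submitters' processing notes; how probes were summarized and background corrected is not given in the sources used here. The separate scales of the tissues were read from the array medians. A total of 64 control probe sets was left out and 45037 were tested; 34945 carried exactly 1 symbol, 932 several and 9160 none. Gene order came from the start positions in a RefSeq table of assembly GRCm38.p6, matched by gene identifier for 34737 probe sets. Distances from Gdap1 were counted in measured genes and not in bases.

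Each tissue was fitted on its own 6 arrays, and the mean and the difference of the tissue effects on all 12, with limma 3.58.1 (lmFit, eBayes with a mean trend) in R 4.3.3, two-sided, with an adjusted threshold of 0.05. Exact permutation tests were run in Python 3.11.15, ranks for Spearman rho came from scipy 1.17.1, and figures used matplotlib 3.10.9.

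The genes, role groups, marker lists and rule for naming were chosen with earlier results of these data known. The rule gives array values for genes among the 10 smallest p-values of the list in nerve, motoneurons or their mean, and for genes whose probe sets differed in sign with an unadjusted p under 0.05 in at least 1. A few other values are named to describe a group and were chosen after they were seen. Alternatives covered normalization, centring, a filter on dim probe sets, array weights, the mean trend, a replicate block, Xist as a covariate, a joint fit, averaging the probe sets of a gene and each array left out. The fits were first tested on simulated data.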

Additional observations from a re-analysis of the deposited data

How the results depend on the processing

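In nerve, 0 probe sets passed under every alternative but the joint fit of all 12 arrays, in which 1 passed, that of Vxn. Of the neighbours, 6 had an unadjusted p under 0.05 among brighter probe sets (9.23%, against 0.99%), and their median was -0.11 with median centring and -0.036 with a gene's probe sets averaged. In motoneurons, 828 passed in the joint fit with 7 of the neighbours, 2929 with 13 under array weights and 61 with 2 among brighter probe sets; the median was -0.14 among brighter probe sets, -0.13 with centring and -0.062 with a gene's probe sets averaged. In the mean of the tissues, 1200 passed with 13 of the neighbours under array weights, 8 with 3 among brighter probe sets and 8 with 2 under centring. The count was 0 with 0 of the neighbours with Xist as a covariate, without the mean trend, with the replicate block, and without the Xist-high nerve and Xist-low motoneuron arrays, a setting chosen after seeing the data. The median was -0.14 with centring, -0.059 without those arrays and -0.081 with a gene's probe sets averaged. For the difference between tissues, 9 neighbours had an unadjusted p under 0.05 among brighter probe sets (13.6%, against 10.1%), where the median was -0.097. The cause was not tested.

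Leaving out 1 array in turn gave 0 passing in nerve, 0 to 4646 in motoneurons, 0 to 2271 in the mean and 0 to 238 in the difference, with 0, 0 to 17, 0 to 16 and 0 to 3 of the neighbours. Neighbours with an unadjusted p under 0.05 numbered 12 to 17 (10.4% to 14.8%, against 1.58% to 3.86% of all probe sets), 19 to 36 (16.5% to 31.3%, against 11.2% to 24.4%), 21 to 31 (18.3% to 27.0%, against 10.2% to 19.3%) and 13 to 23 (11.3% to 20.0%, against 5.54% to 14.0%). The counts over all probe sets thus moved too. The medians were -0.088 to -0.040, -0.15 to -0.073, -0.12 to -0.065 and -0.10 to -0.043. The high counts were those without motoneuron wild type replicate 3, and the 19 that without knockout replicate 3. The call of Rrs1 in the mean of the tissues ended in 14 of 20 alternatives, with the same sign throughout (adjusted p from 0.00267 to 0.136 by limma).

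Among the probe sets named singly, 1764 alternative values passed or failed as in the reported fit. Another 67 passed where the reported fit did not, 14 lost their call and 0 reversed while called. Values that did not pass could change sign: Vxn in motoneurons was lower in 3 of 14 alternatives, against 0.027 in the reported fit. Replicate numbers were treated as names. Deviations of same-numbered arrays of the genotypes correlated at 0.026, 0.31 and 0.22 in nerve and at -0.079 to 0.090 in motoneurons. Whether the numbers mark a pairing in nerve was not settled. With the replicate block, 0 probe sets passed in nerve and 0 in the mean of the tissues, and 22 neighbours in nerve (19.1%, against 3.9% of all) and 29 in motoneurons (25.2%, against 6773 of all 45037) had an unadjusted p under 0.05. Having 3 arrays a group limits the precision of every value.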
